A study of Sus scrofa with 32 samples.

Results

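The cells described here were macrophages of the pig ileum that carried transcripts of complement C1q. They were chosen by measured transcripts, a barcode counting as one when it held at least 4 unique molecular identifiers (UMIs, each standing for 1 captured transcript) of C1QA, C1QB and C1QC together and none of CD3E, CD79B or EPCAM, which mark T cells, B cells and epithelial cells. It also had to pass the study's cell filters on UMIs, genes (at least 550) and the share of UMIs from the 13 mitochondrial protein genes, which left no macrophage with fewer than 1264 UMIs or with a mitochondrial share above 12.2%. The rule was met by 91 of 35386 ileal cells (0.257%), and the series held 48629 cells with those of blood. Because C1q UMIs chose these cells, their C1q levels are given as a description and were not tested.

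The libraries came from 2 mixed-breed pigs aged 7 weeks, pig 1 labelled female and pig 2 labelled male. In each animal the distal ileum gave a Peyer's patch dissection (PP), a patch-free dissection (non-PP) and a full cross section of both kinds (whole ileum), and PBMCs were taken from blood, giving 6 ileal and 2 blood libraries. Ileal suspensions were enriched for live lymphocytes by density gradient and dead cell removal, so that the shares below are shares of such suspensions. By the labels, each group had 1 library per pig, which a sex check below puts in doubt for whole ileum. The p-values measure the spread between these few libraries.

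Macrophages are phagocytes that take up dying cells, microbes and lipoproteins and break them down in lysosomes. C1q, assembled from the A, B and C chains, starts the classical complement pathway by binding antibody and dying cells, and tissue macrophages are a main source of it. In the gut, macrophages sit beneath the epithelium and in the domes and follicles of Peyer's patches, where tingible body macrophages clear dying B cells.

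On Sscrofa11.1, as annotated by RefSeq, the chain genes lie side by side on chromosome 6, with C1QA at chr6:80586259-80589213, C1QC at chr6:80592591-80597464 and C1QB at chr6:80601680-80606076. CD68, a lysosomal membrane protein used as a macrophage marker, lies at chr12:52874754-52877256. The ileal libraries held 21134542 to 40111934 UMIs over all barcodes. Macrophages numbered 26 in PP pig 1, 13 in PP pig 2, 7 in non-PP pig 1, 9 in non-PP pig 2, 20 in whole ileum pig 1 and 16 in whole ileum pig 2. A macrophage held a median of 3231 UMIs (range 1264 to 17830) and 1237 genes (572 to 3519).

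A sex check went against 1 label. UMIs of the Y-linked genes DDX3Y, KDM5D, EIF1AY and ZFY came to 205 counts per 1000000 UMIs (CPM) in the whole ileum library labelled pig 1, a female, against 0.176 in PP and 0.157 in non-PP of that pig and 181 to 225 in the ileal libraries of pig 2. Among the macrophages of that whole ileum library, 8 of 20 held a Y-linked UMI, against none of 26 and none of 7 in PP and non-PP of pig 1. The library labelled whole ileum pig 1 is therefore named by its label only, and genes named below that were not called without it are given as such. Of the 91 macrophage barcodes, 3 (3.30%) also stood for a cell in another ileal library, against 3.82% of all ileal cells, and none was a macrophage in more than 1 library. No macrophage had a doublet score above 0.25, while 2.73% to 3.76% of the cells of each ileal library did. Of simulated doublets, only 25.6% to 42.4% per ileal library scored above 0.25. The score therefore misses many doublets and cannot show that the macrophages were free of them.

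C1q UMIs per macrophage ranged from 4 to 620 with a median of 70, and made up a median of 2.20% of a cell's UMIs. All 3 chains were found in 84 of the 91 cells. C1QA gave 42.6% of the C1q UMIs, C1QB 36.1% and C1QC 21.3%, and in every library but non-PP pig 1, where C1QB led, the order was A, B, C. In CPM of summed macrophage UMIs, C1QA stood at 7826 and 12022 in PP, 7807 and 13463 in non-PP and 14789.6 and 12565 in whole ileum, pig 1 first. In barcodes of 10 to 100 UMIs, taken as free RNA of the suspension, C1QA reached 34.6 to 143 CPM. Of the 17848 C1q UMIs in ileal cells, 63.3% were in these macrophages, 32.1% in cells that had at least 4 but also a CD3E, CD79B or EPCAM UMI, and 4.63% in cells below 4.

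Few cells lay near the limit, since 77 macrophages held 10 or more C1q UMIs. Just inside, 14 cells had 4 to 9, of which 7 held CD68, 4 held CSF1R and 14 held CTSZ. Just outside, among cells free of the excluded markers, 80 had 1, 8 had 2 and 3 had 3 C1q UMIs, and of these 91 cells 2 held CD68, 5 held CSF1R and 29 held CTSZ. The plot of C1q UMIs against depth shows this gap.

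**Figure D1:**
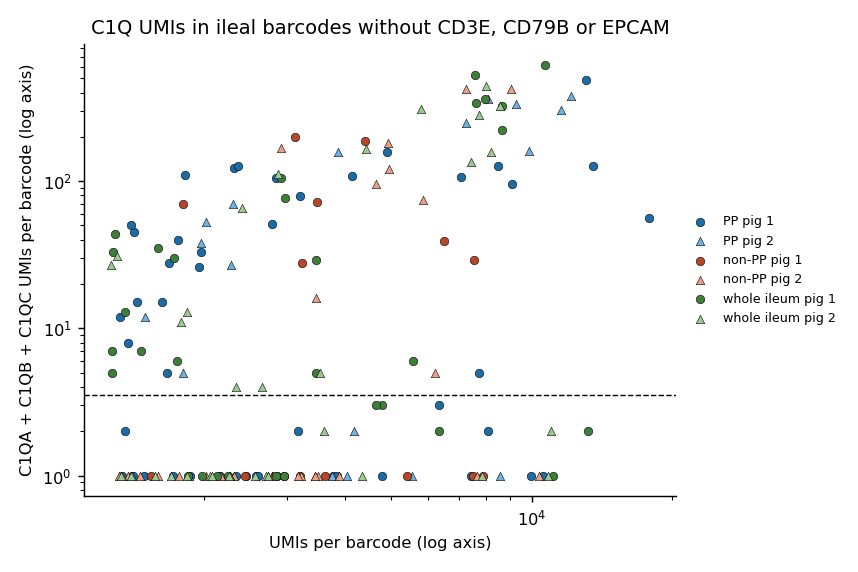
C1QA, C1QB and C1QC UMIs together (y axis, log scale) against all UMIs (x axis, log scale) for each ileal barcode past the filters with a C1q UMI and none of CD3E, CD79B or EPCAM; each point is a barcode, colours and shapes give the library, and the dashed line marks the limit of 4. Most points lie either at 1 UMI or well above the line, and 14 lie between 4 and 9.

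The label was checked against markers that the rule did not use. CD68 was held by 69 of 91 macrophages, and its level was 1078 and 853 CPM in PP, 266 and 589 in non-PP and 582 and 1013 in whole ileum, against 1.35 to 2.55 CPM in all other ileal cells. CSF1R, the receptor for macrophage colony-stimulating factor, was held by 64 cells at 328 to 501 CPM, and the 6 libraries lay close together. CD163, the haemoglobin scavenger receptor, was held by 23 cells (33.2 to 509.6 CPM), CD14 by 33 (66.4 to 320.1 CPM) and the mannose receptor MRC1 by 12 (0 to 71.3 CPM). XCR1, a receptor of conventional dendritic cells (DCs), was at 0 in all 91 macrophages, which allows a share of cells with a UMI of up to 3.30% (counting error only). Other DC genes were present, and 13 of the 17 named members of the DC list were detected. Per library, BATF3 was found in 0 to 6 macrophages, CADM1 in 0 to 6, FSCN1 in 1 to 8 and FLT3, a gate gene of DCs below, in 0 to 2.

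Transcripts of other lineages were also present in macrophage barcodes. The list of 8 innate lymphoid markers summed to 497, 474 and 598 CPM in macrophages of PP pig 1, PP pig 2 and non-PP pig 1, 983 and 799 in whole ileum, and 14458 in non-PP pig 2. There GNLY, a cytolytic protein of killer lymphocytes, reached 7676 CPM and GZMB, a granzyme, 5544, while free RNA held 2098 to 26274 CPM of GNLY. The 12 T cell markers summed to 199 to 1300 CPM, highest in non-PP pig 2, and CD2 was the most abundant over the libraries. CD3D was found in 5 macrophages and CD8B in none. CD3G, however, was found in 0 to 8 macrophages per library and LCK in 0 to 5, both highest in non-PP pig 2, and CD2 in 0 to 6. In non-PP pig 2 this was 8 of 9 macrophages for CD3G and 5 of 9 for LCK. Without cells holding a UMI of 8 further T cell, B cell, epithelial and mast cell genes, 1 macrophage was left in that library. The B cell list summed to 33.2 to 149 CPM over 8 named genes, with MS4A1 in 4 macrophages and PAX5 in 1. FABP6, the ileal bile acid binding protein of enterocytes, led the epithelial list with 1561 CPM in non-PP pig 1 and 67.7 to 337 elsewhere, against 2147 to 59267 in free RNA, while KRT18 was at 0. Stromal COL1A1 and COL3A1 were each found in 1 macrophage and the endothelial gene VWF in none.

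The macrophage shares of PP and non-PP overlapped when taken over all cells. The share was 0.354% (95% exact binomial interval 0.232 to 0.519) and 0.189% (0.101 to 0.323) in PP, 0.179% (0.0720 to 0.369) and 0.238% (0.109 to 0.452) in non-PP, and 0.345% (0.211 to 0.533) and 0.208% (0.119 to 0.337) in whole ileum, pig 1 before pig 2. Intervals and detection limits cover counting error only. PP averaged 0.272% ± 0.117 and non-PP 0.209% ± 0.0419 (SD, n = 2 each), a difference of 0.0630 percentage points (exact two-sided permutation p = 0.667, where 2 against 2 cannot go below 0.33). As a share of all cells, PP was higher in pig 1 and lower in pig 2. Among barcodes with no UMI of the B cell genes CD79A, CD79B or MS4A1, macrophages made up 0.994% and 0.552% in PP and 0.184% and 0.221% in non-PP, higher in PP in both pigs (exact two-sided permutation p = 0.33). With 1000 genes and 2500 UMIs required of a cell, PP minus non-PP was -0.136 percentage points, lower in PP in both pigs (exact two-sided permutation p = 0.33).

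Macrophages were then compared with the other ileal antigen-presenting cells, DCs, to ask what sets the C1q-bearing cells apart within the same suspensions. DCs were taken as cells with a UMI of the growth factor receptor FLT3, at least 3 of AIF1 and CST3 together, at most 1 of C1q and none of the excluded markers, which gave 72 cells with a median of 6500.5 UMIs. XCR1 was found in DCs of all 6 libraries (14.4 to 79.9 CPM). These levels rest on few UMIs, since a library held 4 to 22 DCs with 29772 to 137608 summed UMIs. Because both classes were cut on transcripts, the calls describe cells so chosen, and the genes of the gates were not tested. Counts were summed per library, and non-PP pig 1, with 4 DCs, was left out of the fit. Of 913 genes tested, 163 (17.9%) were higher and 120 (13.1%) lower in macrophages at an adjusted p under 0.05 by edgeR, with a median log2 fold change of 0.00. The filter on low counts could pass a gene through 1 class alone, so that list counts and medians below are descriptions and not support for a list.

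The 4 tested genes of the list of scavenger receptors and nucleases, TIMD4, SCARB2, DNASE2 and DNASE1L3, were all higher in macrophages (median log2 fold change 4.46). TIMD4, a phosphatidylserine receptor for dying cells, stood at 3824, 298, 142, 849 and 913 CPM in macrophages of PP pig 1, PP pig 2, non-PP pig 2, whole ileum pig 1 and whole ileum pig 2, and at 0 in DCs, a difference of at least 222-fold with the 0 replaced by 3 counts summed over the libraries. Without PP pig 1 this bound was 70.4-fold. A single cell held 27.5% of the TIMD4 UMIs. The lysosomal sorting receptor SCARB2 had 216 UMIs in macrophages and 3 in DCs, a ratio of 77.9 (95% counting interval 26.3 to 381), or 195 without whole ileum pig 2, where 1 DC UMI was left. DNASE2, the lysosomal DNase, was higher by 2.92 ± 0.30 on the log2 scale and DNASE1L3, a secreted DNase, by 1.62 ± 0.51. Throughout, ± on a log2 fold change is an approximate SE, back-calculated from the edgeR F statistic and not fitted. DNASE1L3 was not called when PP pig 1, PP pig 2 or whole ileum pig 2 was left out.

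Lysosomal genes were higher together, 18 of 19 tested (median 2.43), LAMP2 being the exception. CD68 was higher by 5.45 ± 0.48 (adjusted p = 2.24e-05). CTSZ, a cysteine protease, stood at 1421 to 4863 CPM in the macrophages of the 5 libraries and 472 to 641 in DCs (2.85 ± 0.25), and CTSS, which trims the class II invariant chain, at 2031 to 4664 against 446 to 873 (2.46 ± 0.19). The groups did not overlap for either protease. ACP5, the tartrate-resistant acid phosphatase, had 519 UMIs against 2, a ratio of 281 (77.3 to 2324), 183 without PP pig 1 and at least 155 without whole ileum pig 1, where no DC UMI was left.

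All 4 tested genes of iron and lipid handling were higher (median 3.42). SELENOP, which carries selenium, was at 1137 to 2342 CPM in macrophages and 11 to 43.6 in DCs, 6.19 ± 0.27 higher. APOE, a lipoprotein, was higher by 4.58 ± 0.62, FTL, the ferritin light chain, by 2.26 ± 0.25 and FABP5, a fatty acid binding protein, by 1.86 ± 0.51. FABP5 was not called without PP pig 2 or without whole ileum pig 1. APOE did not separate the classes in every library, since non-PP pig 2 macrophages held 203 CPM against 289.5 in its DCs.

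All 6 chemokines tested were higher in macrophages, but CXCL14, CCL11, CXCL2, CXCL8 and CXCL10 averaged 0 to 54.9 CPM in DCs and 649 to 8674 CPM in macrophages and so passed the filter on low counts mostly through macrophages. Their number therefore says nothing about the list. The filter removed CXCL2 without whole ileum pig 1 or PP pig 2, and CXCL14 without PP pig 1. With cells holding a UMI of 8 further T cell, B cell, epithelial and mast cell genes set aside, CXCL2, CXCL8, CCL5 and CCL11 were not tested. CXCL14, a chemokine of epithelia and phagocytes, was higher by 7.61 ± 0.30 (adjusted p = 1.32e-07). CCL11, or eotaxin, which attracts eosinophils, was at 573, 1124, 609, 1517 and 513 CPM in the 5 macrophage libraries and 0 in all DCs (at least 123-fold, or 77.8-fold without PP pig 2 and 77.9-fold without whole ileum pig 1). At most 3 cells per library held 85.3% to 100% of the CCL11 UMIs, and without them its level was 114, 194, 0, 257 and 55.7 CPM. The neutrophil attractants CXCL2 and CXCL8 were higher by 5.78 ± 0.62 and 5.54 ± 0.74, and CXCL10 by 3.93 ± 0.42. CCL5 was higher by 2.31 ± 0.25, at a level in macrophages (463 to 3309.9 CPM) below that of free RNA (7168 to 23002 CPM).

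Other complement genes were few. C1R, a protease of the C1 complex, was higher by 3.67 ± 0.45 and CFP (properdin), which stabilises the alternative pathway convertase, by 1.31 ± 0.38. CFP was not called when PP pig 1, PP pig 2, non-PP pig 2 or whole ileum pig 1 was left out. C5AR1, the receptor for the C5a fragment, was at 168 to 285 CPM in macrophages of these libraries and 0 in DCs (at least 32.1-fold, or 20.7-fold without PP pig 2). SERPING1, the C1 inhibitor, gave 0.32 ± 0.25 and did not pass. The list of complement components was led in macrophages by the 3 gate genes and CFD, and 13 of its 17 named members were detected.

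Among the other genes with the largest rise, NUPR1, a stress-response factor, was higher by 4.88 ± 0.58 and NKG7, a granule protein of killer cells, by 4.55 ± 0.38. Free RNA held 242 to 1489 CPM of NKG7, macrophages 33.2 to 751 and DCs 0 to 57.9. Fc receptors FCGR3A (4.43 ± 0.23), FCGRT and FCER1G passed among 5 tested receptors of that list, FCGRT not without PP pig 1, PP pig 2 or whole ileum pig 1. In the interferon list 5 of 7 were higher and GBP1 lower, the latter not called without PP pig 2. IFI6 was higher by 3.22 ± 0.18 and ISG15 by 2.42 ± 0.29. Both were also in free RNA, at 1175 to 6461 and 636 to 2476 CPM.

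In the list of class II presentation and costimulation genes, 4 of 7 tested were lower (median -0.63), all 4 of the class II pathway. CD74, the class II invariant chain, stood at 17033 to 21242 CPM in macrophages of the 5 libraries and 28618 to 41482 in DCs (-0.74 ± 0.14), with no overlap. SLA-DRA fell by 0.78 ± 0.12, SLA-DQB1 by 0.49 ± 0.14 and SLA-DMA by 0.63 ± 0.16. SLA-DMB (0.06 ± 0.18), the costimulator CD86 and the lipid-presenting CD1D did not pass. SLA-DMA and SLA-DQB1 were not called without PP pig 1 or by DESeq2, nor SLA-DQB1 without whole ileum pig 2. Without both whole ileum libraries SLA-DRA was the gene of this list still called, and CD74, IRF8 and SPI1 were not. By DESeq2 IRF8 was not called either. All 4 tested genes of the DC list were lower, namely BATF3 (-2.43 ± 0.32), a transcription factor of conventional DCs, IRF8 (-0.80 ± 0.20), CADM1 and ADAMDEC1, the last called only when neither PP pig 2, non-PP pig 2 nor either whole ileum library was left out. SPI1 and ID2, myeloid and DC transcription factors, were also lower, whereas CSF1R (2.96 ± 0.46) and CEBPB (2.87 ± 0.32) were higher.

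The largest falls included SNX22, a sorting nexin, at 0 in macrophages and 158 to 389 CPM in DCs of the 5 libraries (DCs at least 31.1-fold higher). CIART, a repressor of the circadian clock, fell by 4.91 ± 0.47, the kinase PAK1 by 3.49 ± 0.30 and IL18BP, which neutralises IL-18, by 3.28 ± 0.39. IL18BP was at 102 to 257 CPM in macrophages and 882 to 4070.1 in DCs. Without whole ileum pig 1, 17 of 19 lysosomal genes, 5 of 5 chemokines and 3 of 4 iron and lipid genes tested were higher and 4 of 7 genes of the class II and costimulation list lower, where 130 of all 874 genes tested were higher and 89 lower. With cells holding UMIs of those further lineage genes set aside, 80 genes were higher and 60 lower among 453 tested.

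**Figure D2:**
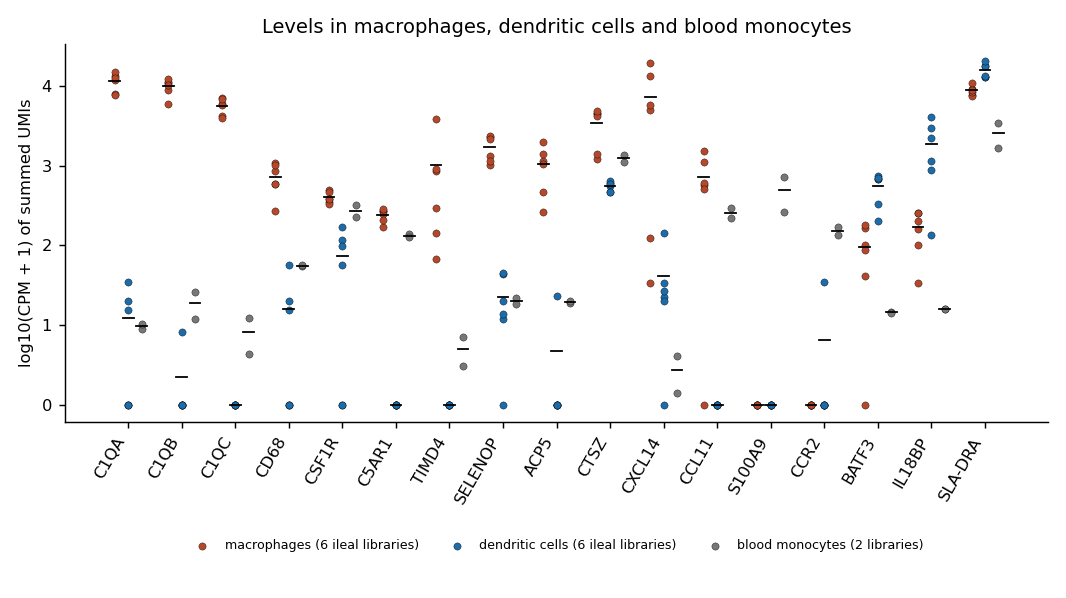
Level of 17 genes as log10(CPM + 1) (y axis) in macrophages and DCs of the 6 ileal libraries and monocytes of the 2 blood libraries; each point is the summed UMIs of a class in 1 library, and bars mark the mean CPM. TIMD4 and C5AR1 lie at 0 in DCs, S100A9 at 0 in both ileal classes, and SLA-DRA is higher in DCs than in macrophages; C1QA, C1QB and C1QC chose the macrophages.

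Blood monocytes are the circulating cells that replenish many gut macrophages. The second comparison asked how tissue macrophages and monocytes differ in pigs that are the same by label. Monocytes were taken as blood cells with at least 5 UMIs of AIF1 and CST3, no FLT3 and none of the excluded markers, 378 in pig 1 and 1068 in pig 2, with a median of 7149.5 UMIs. Sums were made per pig as labelled, and whole ileum pig 1 gave 82423 of the 231238 macrophage UMIs of the pig 1 sum. The class and the tissue of origin, with its own cell preparation, cannot be told apart here. Of 3376 genes tested, 556 (16.5%) were higher and 426 (12.6%) lower in macrophages (edgeR, median log2 fold change -0.04). DC sums were part of the filter on low counts, so that genes near 0 in both compared classes could be tested. Without whole ileum pig 1, 422 were higher and 263 lower, and whether pig 1's sum held cells of another animal was not tested beyond the Y-linked genes.

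Degradation genes were again higher. In the lysosomal list 24 of 31 tested were higher and none lower (median 1.90), among them CTSD, an aspartic protease, at 2694 and 1490.5 CPM in macrophages of pigs 1 and 2 against 133 and 129.8 in monocytes (4.09 ± 0.30), CD68 (4.00 ± 0.23) and ACP5 (6.15 ± 0.37). In the scavenger list 8 of 9 were higher, or 7 of 9 without whole ileum pig 1. DNASE1L3 was at 1886 and 1609.5 CPM in macrophages and 0 in 1446 monocytes (at least 5831-fold, or 1408-fold without PBMC pig 2). HAVCR2, or TIM-3, a phosphatidylserine receptor, was higher by 7.27 ± 0.41, CD163 by 1.83 ± 0.32 and MERTK, a receptor kinase for dying cells, by 1.93 ± 0.46. CD163 was not called without whole ileum pig 1, nor MERTK without PP pig 1. In iron and lipid handling 6 of 8 were higher (median 3.48), with APOE at 10158 and 5972 CPM against 75.4 and 79.0, and SLC11A1, an iron transporter of phagosomes, was lower, though not without either whole ileum library.

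Secreted signals differed in both directions. CXCL14 stood at 11936 and 6743 CPM in macrophages and 0.417 and 3.05 in monocytes, a rise of 12.1 ± 0.68 on the log2 scale. CXCL8 had 286 UMIs against 2, and 7 of the 8 chemokines tested were higher, while CXCL10 was lower by 2.59 ± 0.48. Of 9 cytokine and growth factor genes 6 were higher, namely IL18, IL18BP, IL10, TNF, VEGFA and PDGFB. VEGFA and PDGFB did not pass the filter on low counts without whole ileum pig 1. C3, the central complement protein, was at 471 and 176 CPM against 0.833 and 0.796 (8.67 ± 0.57) and C1R was higher by 3.57 ± 0.30, while FCN1 (ficolin), a lectin pathway component of monocytes, was lower by 5.82 ± 0.38.

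In the class II and costimulation list 6 of 11 were higher and none lower, or 4 of 10 higher without whole ileum pig 1. The 6 were CD74, SLA-DRA, SLA-DQB1 and SLA-DOA of the class II pathway, and CD86 and CD1E, while SLA-DMA gave 0.08 ± 0.20 and SLA-DMB -0.20 ± 0.21. CD86 and SLA-DOA were not called without whole ileum pig 1. CD74 was at 18596 and 20069.7 CPM in macrophages and 5221 and 3189 in monocytes (2.30 ± 0.23), and SLA-DRA was higher by 1.87 ± 0.30. Of the DC list 8 of 9 were higher than in monocytes, BATF3 by 3.03 ± 0.25. The monocyte gate left out cells with an FLT3 UMI and the macrophage gate did not. This count is therefore a description, and the part of the gates in it was not tested. With cells holding UMIs of further lineage genes set aside, BATF3, IRF8, CCR7, CD1E and ITGAE of this list were no longer called. These comparisons share the macrophage cells and were not set against each other in a test.

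Monocyte genes were lower, 9 of 11 tested, with a median log2 fold change of -4.49 when genes without a UMI are set at their bound and -5.80 as fitted. The calprotectin chain S100A9 had 6057 UMIs in monocytes (262 and 720.1 CPM) and 0 in the 91 macrophages, so that monocytes were at least 86.2-fold higher. S100A12, a related calcium-binding protein, was at least 222-fold higher in monocytes, S100A8 at least 64.3-fold and the chemokine receptor CCR2 at least 22.5-fold. By DESeq2 the S100A8, S100A9 and S100A12 differences missed the threshold (adjusted p = 0.177, 0.153 and 0.0892). LYZ, or lysozyme, was at 709 and 279 CPM in macrophages and 9798 and 4139.6 in monocytes (-3.72 ± 0.64). Outside this list the largest falls included SLPI, a secreted protease inhibitor (at least 106-fold), and the coagulation factor chain F13A1 (at least 41.4-fold). PBMC pig 2 gave most of the monocytes, and without it the bounds of S100A9, S100A12, S100A8 and SLPI were 37.0-fold, 111-fold, 28.5-fold and 26-fold.

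Interferon-induced genes were lower in 10 of 16 tested and higher in none (median -1.40), and without whole ileum pig 1 in 6 of 16. IFI6 was at 4640.2 and 6397 CPM against 5052 and 8288 and did not pass. Some large rises were of genes also abundant in free ileal RNA. FABP6 had 125 UMIs against 3 in monocytes and stood at 2147 to 59267 CPM in free RNA, and the goblet cell peptide TFF3 had 34 against 1, with 438 to 11998 CPM in free RNA. T cell markers CD5, CD3G and CD4 (3 of 4 tested, CD4 alone without whole ileum pig 1) and antibody-secreting cell markers XBP1, DERL3 and JCHAIN (3 of 3) were also higher. So were the innate lymphoid markers NKG7 and GZMB (2 of 3), the epithelial CDH17 (2 of 2 with FABP6) and FCER1A of the mast cell list, in which MS4A2 was lower. The part of other cells in the macrophage values was not tested. Other rises were of genes that free RNA held at a few CPM, such as SMOC1, a matrix protein (at least 289-fold, 163-fold without PP pig 1 and 69.7-fold without PBMC pig 2, free RNA 0 to 1.01 CPM).

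**Figure D3:**
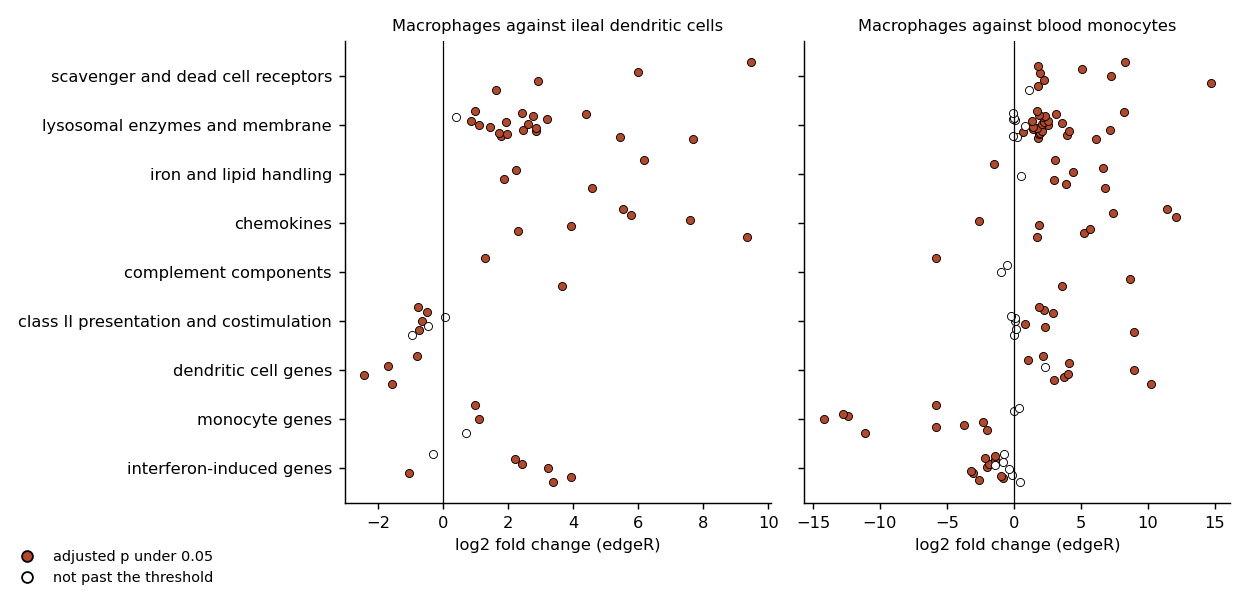
Fitted log2 fold change (x axis, edgeR) of each tested gene of 9 lists (y axis) in macrophages against ileal DCs (left) and against blood monocytes (right); filled points passed an adjusted p of 0.05. Lysosomal and iron and lipid genes lie mostly right of 0 on both sides, and genes of the class II and costimulation list that passed lie left of 0 against DCs and right of it against monocytes; fitted values of genes without a UMI in 1 class depend on the fit.

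The third comparison was between dissections, PP against non-PP, within macrophages only. It rests on 26 and 13 macrophages in PP and 7 and 9 in non-PP, with 118713, 73864, 30102 and 49246 summed UMIs. Of 1141 genes tested over the 6 ileal libraries, 17 (1.49%) were higher and 2 (0.175%) lower in PP by edgeR, 1.67% in all, with adjusted p between 0.0286 and 0.0498 and a median log2 fold change over all genes of -0.01. The 2 PP and 2 non-PP libraries did not overlap for 511 of the genes (44.8%). Of the 17, 15 carried a symbol. All of these calls were lost with the limit at 2 or at 10 C1q UMIs and with only the 4 PP and non-PP libraries in the fit. A gene without UMIs in non-PP could pass the filter through PP and whole ileum alone, so that list counts here are descriptions too.

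CXCL14 was at 19214 and 4969 CPM in PP, 33.2 and 122 in non-PP and 5799 and 13264 in whole ileum, pig 1 first. It was 7.13 ± 0.89 higher in PP on the log2 scale (adjusted p = 0.0286), and whole ileum lay with PP. Cells with a CXCL14 UMI numbered 15 of 26, 8 of 13, 1 of 7, 2 of 9, 10 of 20 and 9 of 16 in the same order of libraries. In all other ileal cells CXCL14 stood at 26.3 and 6.27 CPM in PP and 35.2 and 42.5 in non-PP, and in free RNA at 143 and 58.8 in PP and 12.3 and 19.3 in non-PP. Among DCs, 9 of 72 had a CXCL14 UMI at their greater depth, or 5.36% when each cell was thinned to the UMI minimum of the cell filter, against 42.4% of thinned macrophages.

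APOE was at 17462 and 4197 CPM in PP, 233 and 203 in non-PP and 3264 and 11894 in whole ileum (5.67 ± 0.90, adjusted p = 0.0352). CLU (clusterin), a chaperone that also binds terminal complement complexes, was at 5956 and 1340.3 CPM in PP, 0 and 0 in non-PP, and 1395 and 3437 in whole ileum, at least 111-fold higher in PP. The CLU bound was 35.5-fold without PP pig 1, 68.7-fold without non-PP pig 1 and 42.0-fold without non-PP pig 2. A few cells carried much of both transcripts, since 3 of the 26 macrophages of PP pig 1 held 79.2% of its APOE UMIs and 3 held 80.8% of its CLU UMIs. Over the 15 genes with a symbol this share of the top 3 cells ran from 52.0% for NPL to 81.5% for PLIN2. For APOE and CLU every PP and whole ileum library lay above both non-PP libraries.

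IL18, an inflammatory cytokine, had 243 UMIs in PP and 3 in non-PP, a ratio of 33.4 (11.3 to 163). PP pig 1 held 210 of these UMIs and PP pig 2 held 33, and without PP pig 1 the ratio was 11.8. Of 28 lysosomal genes tested 4 were higher and none lower (median 1.00), namely CTSD, ACP5, GM2A and CTSZ. CTSD was at 4111 and 1489 CPM in PP, 233 and 122 in non-PP and 1553 and 2453 in whole ileum (4.08 ± 0.58). CTSZ, at 4414 and 4630.1 in PP, 1229 and 1421 in non-PP and 4149 and 4863 in whole ileum, was higher by 1.81 ± 0.24 with little spread within a dissection. ACP5 was higher by 2.20 ± 0.40, and GM2A, a cofactor of ganglioside breakdown, by 2.04 ± 0.34. ACP5 was not called without PP pig 1, non-PP pig 2 or whole ileum pig 1, GM2A without PP pig 1 or whole ileum pig 1, and IL18 without either non-PP library.

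DNASE1L3 (3.17 ± 0.54) and DNASE2 (2.53 ± 0.45) were the higher genes among 6 tested of the scavenger list, DNASE2 not without either non-PP library, and PLIN2, APOE and SLC40A1 among 7 of iron and lipid handling (median 1.88). PLIN2, a coat protein of lipid droplets, and SLC40A1, the iron exporter ferroportin, had no UMI in non-PP macrophages and were at least 9.61-fold and 5.77-fold higher in PP, bounds that fell to 3.65-fold and 2.19-fold without non-PP pig 2. SDC4, a heparan sulfate proteoglycan, was at least 12.1-fold higher and the reductase CYB561A3 at least 6.04-fold, or 4.59-fold and 2.29-fold without non-PP pig 2. The lower genes were EZR (ezrin), which links actin to the membrane, at 84.2 and 135 CPM in PP and 930.2 and 467 in non-PP (-2.60 ± 0.46), and the adhesion receptor ADGRE5 (CD97), at 50.5 and 203 against 1296 and 731 (-3.00 ± 0.57). With pig as a block PLIN2, SLC40A1, CYB561A3 and ADGRE5 were not called, nor were these and EZR without at least 1 of the libraries. For EZR and ADGRE5, whole ileum lay with PP, at 121 and 99.8 CPM of EZR and 146 and 157 of ADGRE5.

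**Figure D4:**
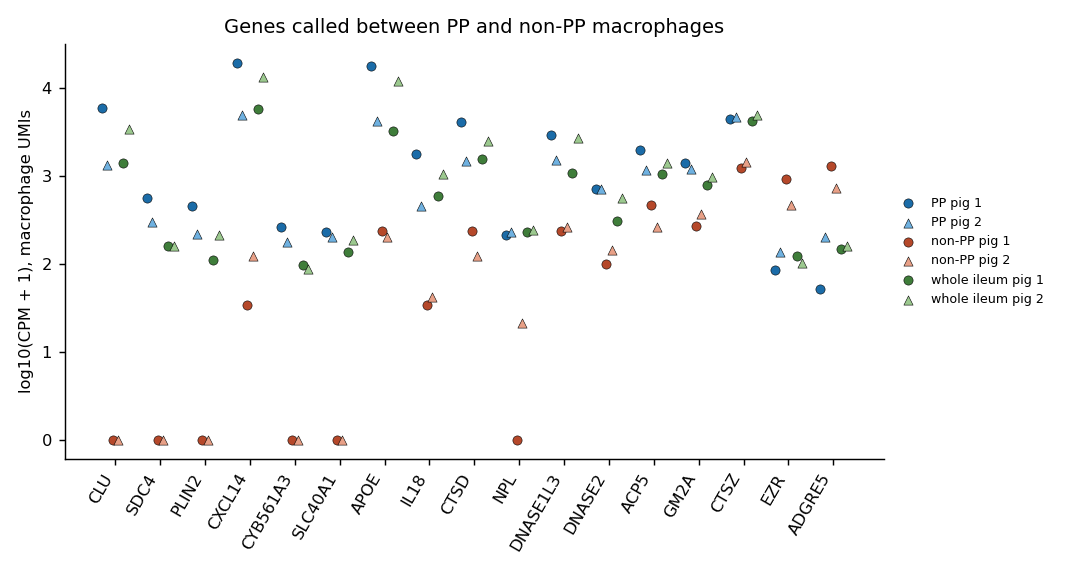
Level of the 15 genes called higher and 2 called lower in PP that carry a symbol, as log10(CPM + 1) of summed macrophage UMIs (y axis) in each of the 6 ileal libraries (colour and shape). For each gene both PP points lie on one side of both non-PP points, and most whole ileum points lie nearer to PP.

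Other macrophage genes did not pass the test between dissections. TIMD4 was at 3824 and 298 CPM in PP and 66.4 and 142 in non-PP (4.23 ± 1.10, adjusted p = 0.0920), and CXCL2 at 135 and 555 in PP and 3455 and 2051 in non-PP (-2.96 ± 0.61, adjusted p = 0.0570). None of the 5 complement components tested passed (median 0.07), nor any of 7 genes of the class II and costimulation list (median -0.29), 7 myeloid factors (median -0.32) or 10 interferon-induced genes (median -0.40). CD68 gave 1.16 ± 0.46 (adjusted p = 0.243), CSF1R 0.06 ± 0.34 and CD74 0.06 ± 0.23. GNLY, high in non-PP pig 2 alone, gave -6.55 ± 1.54 (adjusted p = 0.0704).

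The dissection calls depended on settings more than the others. With the limit at 2 or at 10 C1q UMIs, and with only the 4 PP and non-PP libraries in the fit, no gene passed (183, 183 and 138 had an unadjusted p under 0.05 by edgeR, against 192). The adjusted p of CXCL14 was then 0.092, 0.062 and 0.073. With the cells holding 1 of the 8 further lineage genes set aside, macrophages numbered 15 and 6 in PP, 5 and 1 in non-PP and 10 and 9 in whole ileum, and 3 genes were higher among 416 tested. The non-PP sum of pig 2 then held a single cell, so that these calls rest on very few cells. With pig as a block, 14 genes were higher and 1 lower, 13 and 1 of them shared. DESeq2 called 18 higher, 16 shared, and 8 lower. Without whole ileum pig 1, whose label is in doubt, 12 of 1468 were higher, 11 of them shared, and none lower, and 2 of 29 lysosomal genes were still called. SLC40A1 and CYB561A3 were then also among the genes no longer called. Without PP pig 2, 41 were higher and 22 lower.

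The 15 PP-higher genes were detected together in some cells. A median of 10 of them per cell was found in PP pig 1, 11 in PP pig 2, 2 in non-PP pig 1, 4 in non-PP pig 2, and 9 in each whole ileum library. Cells varied widely, from 2 to 15 genes in PP pig 1 and from 0 to 14 in whole ileum pig 1, and the highest non-PP cell held 9. These genes were chosen by the contrast of PP with non-PP in the same cells, so that the order of those medians follows from the choice and is a description without a test. Median depth per macrophage ranged from 2335.5 UMIs in PP pig 1 to 4950 in non-PP pig 2, and its part in these counts was not tested.

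**Figure D5:**
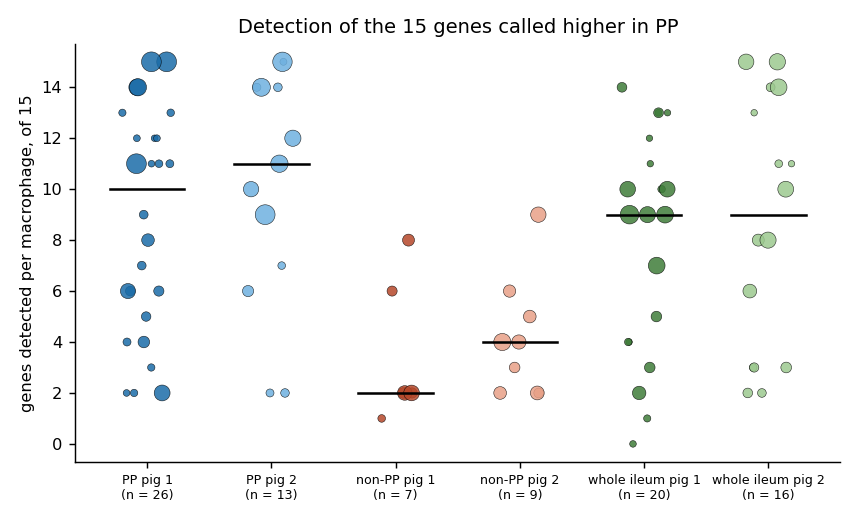
Number of the 15 PP-higher genes with a UMI in each macrophage (y axis) by library (x axis, number of cells below each name); point area grows with the cell's UMIs and lines mark medians. Medians are 10 and 11 in PP, 2 and 4 in non-PP and 9 in both whole ileum libraries, and the genes were chosen by the PP against non-PP contrast in these cells.

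Within PP and whole ileum, 42 of 75 macrophages held a CXCL14 UMI and 33 did not. CLU was found in 31 of the former and 1 of the latter, APOE in 38 and 15, DNASE1L3 in 41 and 12 and TIMD4 in 35 and 7. CXCL2 was found in 7 and 11 and CXCL8 in 10 and 11. CSF1R was found in 27 and 25 of these cells and CD163 in 11 and 7. Their median depths were 2382 and 2871 UMIs and their median C1q counts 73.5 and 38. The split was made on CXCL14 after its values had been seen and cells are not replicates, so that these counts are a description without a test.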

How the data were processed

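The authors deposited UMI counts of every gene for all barcodes, to which no ambient RNA, cell or doublet filter had been applied. They used Cell Ranger (4.0.6 in the submitters' processing notes) with Sscrofa11.1 and a modified Ensembl annotation, 4 sequencing runs per library. Of 25880 genes, 17732 carried a symbol, 969 were named from a supplied table and 20 from a supplementary table of the study, and 7159 stayed unnamed.

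Cells were gated as described, with the study's cell filters. Doublets were scored per library with Scrublet (scanpy 1.11.5, expected rate 0.07) and kept. Counts were summed per library or pig and class and tested with edgeR 4.0.16 (quasi-likelihood, TMM, filterByExpr, Benjamini-Hochberg over all genes tested). Library was a block against dendritic cells. Dendritic cell sums entered the monocyte fit and whole ileum the dissection fit to estimate the spread. Both also entered the filter on low counts of their fit. DESeq2 1.42.0, other gates, filters, blocks and left-out libraries were alternatives. Same-numbered libraries come from 1 animal per the labels, with the exception noted for whole ileum pig 1. The tests were first run on simulated data.

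The members, gates and gene lists were chosen with earlier results of these data known. Named genes were the 12 largest changes each way (8 between dissections) among called genes with a symbol that moved alike in every pair and reached 50 CPM, with the 4 most abundant and the called members of each list. LAMP2, SERPING1, TIMD4, CXCL2 and GNLY between dissections, and values of genes that were not called, were named after their values were seen.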

Additional observations from a re-analysis of the deposited data

Results flagged for a closer look

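As a share of all cells, macrophages were higher in PP than in non-PP by 0.175 percentage points in pig 1 and lower in pig 2 (PP minus non-PP of -0.0492), opposite directions in the only 2 animals. Among barcodes without B cell UMIs the share was higher in PP in both pigs. With 1000 genes and 2500 UMIs required of a cell it was lower in PP in both, at 0.260% and 0.201% against 0.298% and 0.434% in non-PP, pig 1 first. The difference between pigs was not tested.

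Outside the comparisons, 71 ileal barcodes past the cell filters held at least 4 C1q UMIs together with a CD3E, CD79B or EPCAM UMI. CD79B was found in 40 of them, CD3E in 36 and EPCAM in 4, and 27 held just 1 UMI of these genes. Their median C1q count was 19 and their median depth 4861 UMIs, against 70 and 3231 in the macrophages. CD79B was found in 17 and 8 of these barcodes in PP, none in non-PP and 4 and 11 in whole ileum, and CD3E in 9 and 1, 5 and 10, and 2 and 9. A further 101 ileal barcodes passed the C1q rule but failed the cell filters, 95 on UMIs or genes and 6 on mitochondrial UMIs alone.

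In blood, 11 barcodes of pig 2 and 2 of pig 1 passed the same C1q rule (0.162% and 0.0310% of cells). All 13 also lay in the monocyte gate. The Y-linked UMIs of whole ileum pig 1, at 205 CPM in a library labelled female, stand outside the range of the other ileal libraries of that pig.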

How the results depend on the processing

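Depth limits these results, since 7 to 26 macrophages per library left 1141 genes above the filter between dissections, against 9790 without it. Over the called members of the lists and the genes named for the largest changes, 1047 of 1113 values under the alternatives kept their call against DCs, 2531 of 2663 against monocytes and 165 of 253 between dissections. Genes that a setting did not test are left out of these totals. The totals also include doublet removal, which changed no call against DCs or between dissections. Sign changed only against monocytes, for FCER1A (-0.11 at 10 C1q UMIs, -1.35 without cells holding lineage UMIs) and CD86 (-0.0097 without those cells). Of 61 list members called against DCs, 4 of the 58 tested lost the call without whole ileum pig 1 (CFP, FABP5 and FCGRT among them), 7 without PP pig 1 and 9 without PP pig 2. Of 118 called against monocytes, 16 of the 113 tested lost it without whole ileum pig 1 (CD163, SLC11A1, C5AR1, ITGB2 and CTSC among them) and at most 8 without another library. Doublet removal took out no macrophage.

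Counts are given as higher and lower genes. Against DCs they were 413 and 214 without the filter on low counts, 80 and 60 without cells holding further lineage UMIs, 457 and 308 with sums per pig and pig as the block, 147 and 117 without the library block, and 95 and 42 without both whole ileum libraries. DESeq2 called 74 lower, and 189 were lower with the excluded markers allowed. Leaving out each library gave 115 to 210 higher and 89 to 129 lower. Against monocytes the counts were 840 and 897 without the filter, 241 and 161 without lineage UMIs, 843 and 660 with excluded markers allowed, 291 and 269 with sums per library, 312 and 199 without whole ileum, and 626 and 531 with pig as a block. Leaving out each library gave 422 to 596 and 263 to 471, the lowest of both without whole ileum pig 1. Between dissections they were 75 and 23 without the filter, 3 and 0 without lineage UMIs (1 cell in non-PP pig 2), 30 and 7 with excluded markers allowed, 14 and 1 with pig as a block, and 0 and 0 at limits of 2 or 10 C1q UMIs or with 4 libraries. DESeq2 called 8 lower. Leaving out each library gave 12 to 41 and 0 to 22. The lower count was 1 without PP pig 1, 6 and 8 without non-PP pigs 1 and 2, and 9 without whole ileum pig 2. The higher count was 41 without PP pig 2. EZR, CYB561A3, ADGRE5, SLC40A1, PLIN2, IL18, ACP5, GM2A and DNASE2 lost their call without at least 1 library, and CYB561A3, ADGRE5, SLC40A1 and PLIN2 under the block.

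The share difference of 0.0630 points became -2.57 as a share of macrophages plus DCs (exact p = 1) and -0.136 with 1000 genes and 2500 UMIs required (exact p = 0.33), and ranged from -0.0196 to 0.146 without 1 library. It was 0.0630 with pig as the block and 0.571 among barcodes without B cell UMIs. Allowing the excluded markers, leaving out C1q-bearing monocytes, blocking the share by pig and leaving out whole ileum pig 1 from the lists were chosen after seeing the data. The cause of these changes was not tested.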

Other observations

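The 13 blood barcodes past the C1q rule held a median of 26 (pig 1) and 21 (pig 2) C1q UMIs, below the ileal median of 70. CD163 was found in 9 of them, all of pig 2, CD14 in 10, APOE in 9 and FCGR3A in all 13. LYZ was found in 11, S100A9 in 1, S100A8 in none and CXCL14 in none. SELENOP, found in 73 of 91 ileal macrophages, was found in 3 of the 13. These barcodes were few and were not compared in a test.

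The antibody-secreting cell list, led by JCHAIN and XBP1, summed to 404 and 501 CPM in macrophages of PP, 233 and 244 in non-PP and 388 and 556 in whole ileum. IRF4, SDC1 and TNFRSF17 of that list had no UMI in any macrophage. The mast cell receptor chain FCER1A was found in 6 macrophages and the mast cell list reached 650 CPM in non-PP pig 2 and 0 in whole ileum pig 2. PECAM1, an adhesion molecule of endothelium and leukocytes, was the most widely found stromal and endothelial gene, in 12 cells.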
